A study of Mus musculus with 6 samples.

Results

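The genes described here are those by which cells display peptides to T cells on MHC class I and class II molecules, in mouse endometrium with adenomyosis. They are the 32 genes whose symbols were listed for these 2 pathways, out of 44788 symbols in the count table, and all 32 had enough counts to be tested. Of them, 19 belong to the class I pathway and 10 to the class II pathway. The class I-like molecules Cd1d1 and Mr1 and the promoter factor Rfx5, which serves both pathways, were kept apart.

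Adenomyosis is the growth of endometrial glands and stroma inside the muscle wall of the uterus. All animals were females of the outbred ICR strain, born to 5 dams, that had been given tamoxifen by mouth as newborns, in doses of 2.7 µmol/kg from day 2 to day 5 of life, so the group without agonist carries the tamoxifen treatment too. After 75 days, 8 of them were injected in the abdomen with the GnRH agonist Decapetyl, at 1.5 µg per 100 g of body weight each day from day 3 to day 9 of estrus. The 8 others were injected with the solvent. The females were mated 4 weeks later, and on the evening of day 4 of pregnancy the endometrium was scraped from uteri in which histology had shown adenomyosis. Each group gave 3 libraries. Whether a library stands for 1 mouse or a pool is not told by the labels, which name no batch either, and p-values therefore reflect the spread among the libraries, which may be technical. No group without tamoxifen was analysed here. The libraries are numbered in the order of their records, and a number pairs nothing across the groups.

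Class I molecules are a heavy chain (H2-K1, H2-D1 and relatives) bound to beta-2 microglobulin, and they carry peptides cut from proteins of the cell's own cytosol by the proteasome, moved into the endoplasmic reticulum by the Tap transporter and trimmed and loaded there with the help of tapasin, calreticulin and Pdia3. Nearly all nucleated cells make them. Class II molecules are made mainly by dendritic cells, macrophages and B cells, are escorted by the invariant chain Cd74, and receive their peptides in endosomes under the control of H2-DM and H2-O. Interferon gamma raises both pathways, the first largely through Nlrc5 and the second through Ciita, and both transactivators act on a shared promoter module of X and Y boxes bound by RFX, CREB and NF-Y proteins.

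No member of either pathway passed the test between the groups. By edgeR's quasi-likelihood F-test with Benjamini-Hochberg adjustment over 16581 genes, 0 of the 32 members had an adjusted p under 0.05, beside 0% of all genes tested. At an unadjusted p under 0.05 the members gave 0 higher and 0 lower, where 4.17% of all genes were higher and 5.09% lower. DESeq2, which called 421 of 16954 genes (2.48%), called 0 members. The smallest adjusted p of a member was 0.549, for Calr. In point estimate 5 members lay higher with the agonist and 27 lower. All 19 class I genes lay lower, with a median log2 fold change of -0.44, and the class II genes gave 3 higher and 7 lower with a median of -0.19. Over all genes tested, 7925 of 16581 lay lower and the median was 0.02. These tallies depended on the scaling, the test and single libraries. With library totals alone as the scale, 4 of 19 class I and 5 of 10 class II genes lay higher, and by limma-voom 1 of 19 and 7 of 10 did. Without the third no-agonist library, 11 of 19 class I and 9 of 10 class II genes lay higher. Leaving out the third agonist library gave 3 of 19 and 6 of 10 higher, and leaving out the first gave 1 of 19 and 2 of 10.

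What the members shared was a pattern over libraries that cut across the groups. The third no-agonist library was the highest of the 6 in 15 of 19 class I genes and in 6 of 10 class II genes, against 22.4% of all genes tested. It and the first agonist library were the top pair in 19 of 32 members (59.4%), against 10.4% of all genes. The second no-agonist library was the lowest of the 6 in 9 of 10 class II genes, against 6 of 19 class I genes and 17.6% of all genes. These counts describe the libraries and carry no test. Genes of 1 pathway share their libraries and in part their regulators, so they are not independent.

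**Figure D1:**
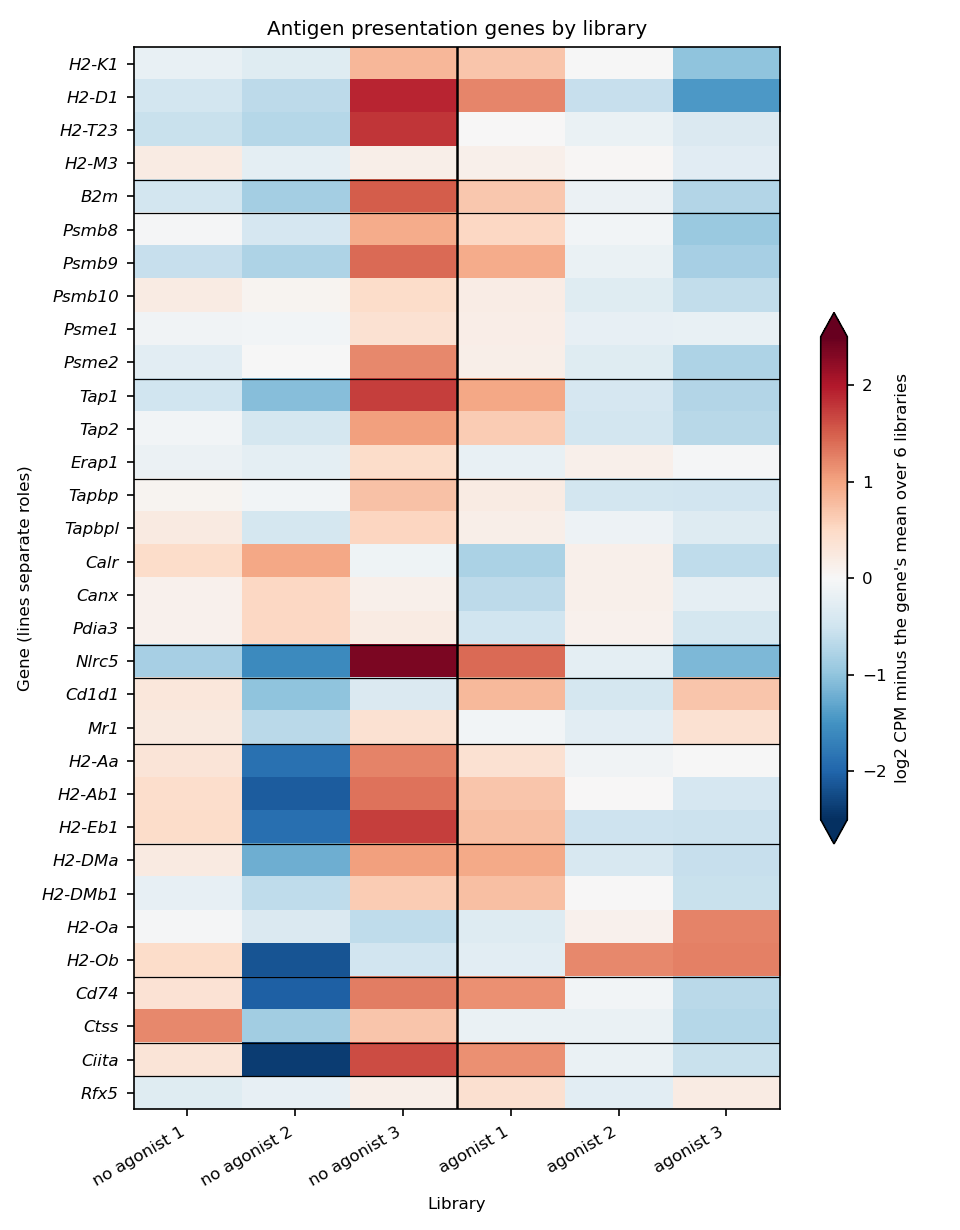
Level of each of the 32 members (rows, ordered by role) in the 6 libraries (columns), as log2 CPM (the gene's share of the library's counts, scaled to a common library size) minus the gene's mean over the libraries, with red above and blue below the mean. The columns of the third no-agonist library and the first agonist library are red for most class I and class II genes, and the column of the second no-agonist library holds the lowest value of 9 of 10 class II genes.

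The heavy chains H2-D1 and H2-K1 were among the most abundant members. Levels are given as CPM, on library sizes scaled by TMM factors, in the order of replicates 1, 2 and 3. H2-D1, a classical heavy chain (chromosome 17, 35262730 to 35267499, GRCm38), measured 1059, 926 and 5512 CPM without the agonist, against 3416, 987 and 542 CPM with it. One library of each group thus stood far above its 2 partners, which overlapped with those of the other group, and the highest exceeded the lowest 10.2-fold. The group means were 2499 ± 2610 CPM without and 1649 ± 1547 CPM with the agonist (SD, n = 3), and the fitted log2 fold change was -0.60 ± 0.88 (SE, adjusted p = 0.890). H2-K1, the other classical heavy chain (chromosome 17, 33996017 to 34000347), measured 636, 587 and 1286 CPM without and 1168, 727 and 363 CPM with the agonist. The same 2 libraries were its highest, over a narrower 3.54-fold range, and its log2 fold change was -0.15 ± 0.48 (adjusted p = 0.960).

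B2m, the light chain that every class I heavy chain needs at the cell surface (chromosome 2, 122147686 to 122153083), measured 405, 309.9 and 1594 CPM without the agonist, against 895, 502 and 337 CPM with it. It has no stretch of 50 bases in common with another annotated gene. Its 2 highest libraries were the third no-agonist and the first agonist library. Its log2 fold change was -0.41 ± 0.65 (adjusted p = 0.901). H2-T23, which encodes the nonclassical molecule Qa-1 that NK cells read, measured 38.0, 34.1 and 192 CPM without and 56.1, 49.99 and 43.8 CPM with the agonist. Only the third no-agonist library stood apart, and the fold change of -0.82 ± 0.63 (adjusted p = 0.754) turned to 0.47 without it. H2-M3, which presents formylated peptides, lay between 11.6 and 16.3 CPM in all 6 libraries, a 1.40-fold range that was the smallest of the 4 heavy chains.

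Some heavy-chain counts may be shared with relatives. Of the 50-base stretches of their annotated transcripts, 9.63% for H2-K1, 12.8% for H2-D1 and 13.6% for H2-T23 occur in another gene, H2 genes or pseudogenes first among them, while H2-M3 shares 0.576%. ICR is outbred, and its H2 alleles can differ from those of the reference build. How either affected the counts was not tested.

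Nlrc5, the transactivator of class I genes, had, with Ciita, the widest range of the 32 members. It measured 7.92, 4.70 and 72.6 CPM without the agonist, against 37.9, 12.0 and 6.54 CPM with it, a 15.5-fold span between the second and the third no-agonist library. Both extremes thus fell within 1 group. The log2 fold change of -0.59 ± 1.05 (adjusted p = 0.911) became 1.57 without the third no-agonist library and -1.61 without the first agonist library.

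Several genes that cut and move the peptides had the same top pair of libraries. Psmb9, an inducible catalytic subunit of the immunoproteasome (chromosome 17, 34181987 to 34187764), measured 50.9, 44.4 and 201 CPM without and 143, 67.2 and 42.5 CPM with the agonist. Tap1, a subunit of the peptide pump (chromosome 17, 34187553 to 34197225), measured 56.3, 37.9 and 263 CPM without and 156, 59.4 and 47.8 CPM with it. In both, the third no-agonist and the first agonist library lay above the other 4, and the log2 fold changes were -0.23 ± 0.66 for Psmb9 (adjusted p = 0.955) and -0.44 ± 0.76 for Tap1 (adjusted p = 0.908). The pair is divergent, with RefSeq start sites 226 bases apart on opposite strands, and the annotated genes overlap at that end. The strand setting of the counting is not given, so reads from the overlap cannot be told apart. Tap2, the partner of Tap1, ranged from 36.7 to 121 CPM with the same top pair.

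The other immunoproteasome genes spread less. Psmb8 ranged from 71.2 to 258 CPM, and Psmb10, another inducible catalytic subunit, from 70.6 to 148 CPM. Psmb10 measured 124, 112 and 148 CPM without and 123.1, 86.7 and 70.6 CPM with the agonist, so that only its first agonist library reached into the range of the other group. Its log2 fold change was -0.45 ± 0.25 (adjusted p = 0.643). Of the proteasome activator subunits, Psme1 ranged 1.50-fold and Psme2 3.93-fold, with fold changes of -0.16 ± 0.23 and -0.72 ± 0.42 on the log2 scale, and 28.3% of the 50-base stretches of Psme2 occur elsewhere, mainly in Psme2b and Gm7928. Erap1, the aminopeptidase that trims peptides in the endoplasmic reticulum, ranged from 47.1 to 76.3 CPM, with a fold change of -0.08 ± 0.23.

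Immunoproteasome subunits replace constitutive partners in the particle, so each pair was also compared as a ratio. These are ratios of counts that are not corrected for gene length, and they are read between libraries only. The log2 ratio of Psmb9 to Psmb6 was -1.79, -2.18 and 0.49 in the no-agonist libraries and -0.13, -1.58 and -1.70 in the agonist libraries. The third no-agonist and the first agonist library again stood above the rest, and the group means differed by 0.03 (p = 1, exact two-sided permutation test). Psmb8 to Psmb5 differed by 0.25 (exact permutation p = 0.7) and Psmb10 to Psmb7 by -0.40 (exact permutation p = 0.3). Adjusted over the 3 pairs these became 1, 1 and 0.9, and the smallest p that 3 against 3 libraries can give is 0.1. Psmb6 and Psmb7 themselves ranged only 1.46-fold and 1.43-fold. Psmb5 measured 28.2, 36.8 and 34.5 CPM without and 27.8, 26.6 and 15.004 CPM with the agonist, groups that did not overlap (log2 fold change -0.52 ± 0.28, unadjusted p = 0.0997, adjusted p = 0.629).

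**Figure D2:**
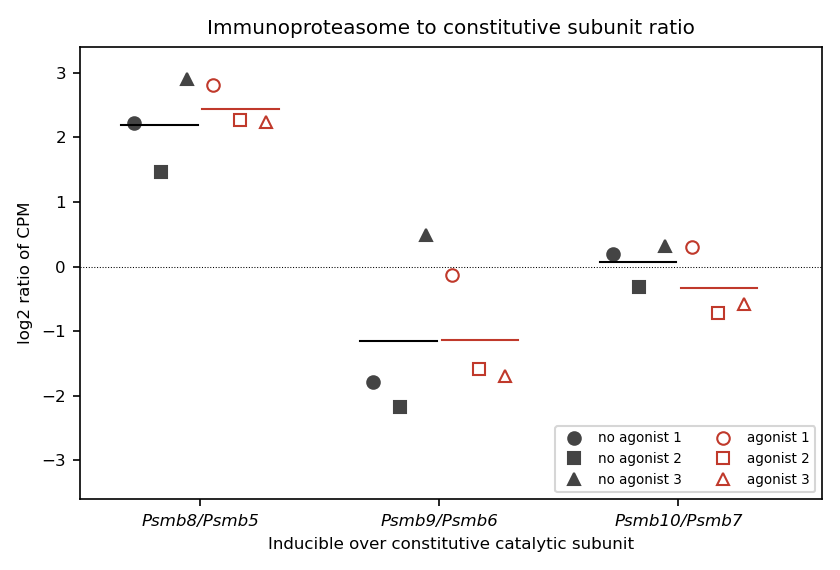
Log2 ratio of the inducible to the constitutive catalytic subunit (y axis, from CPM without length correction) for the 3 proteasome pairs in each library, with filled black symbols for no agonist, open red symbols for agonist and short lines for the group means. The group means of Psmb9 to Psmb6 differ by 0.03, while its single libraries run from -2.18 to 0.49.

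The general chaperones of the endoplasmic reticulum, which serve many proteins besides class I, had another order of libraries. Calr, the calcium-binding chaperone calreticulin (chromosome 8, 84841850 to 84846934), measured 1605, 2285 and 1088 CPM without the agonist, against 676, 1286 and 759 CPM with it. Pdia3, the disulfide isomerase of the loading complex (chromosome 2, 121413775 to 121438687), measured 675, 889 and 722 CPM without and 438, 667 and 458 CPM with it. Canx, the membrane chaperone calnexin, measured 445, 596 and 456 CPM without and 263, 456.3 and 354 CPM with it. In all 3 the second no-agonist library was the highest and the first agonist library the lowest, and in Calr and Canx 1 agonist library reached into the range of the other group.

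Pdia3 was the only member whose groups did not overlap, 1 of 32 lower and 0 of 32 higher, where 7.61% of all genes tested were lower in this sense and 6.94% higher. Its means were 762 ± 113 CPM without and 521 ± 127 CPM with the agonist (SD, n = 3), a log2 fold change of -0.55 ± 0.26 (unadjusted p = 0.0700, adjusted p = 0.574). The gap was small, since the lowest library without the agonist was at 675 CPM and the highest with it at 667 CPM. Calr had the lowest p of all members, with means of 1659 ± 600.3 and 907 ± 331 CPM and a log2 fold change of -0.87 ± 0.38 (unadjusted p = 0.0530, edgeR adjusted p = 0.549, DESeq2 adjusted p = 0.320). Leaving out any 1 library kept the fold change of Calr between -1.21 and -0.56. Epithelial markers lay lower with the agonist in the same libraries, 8 of 8 in point estimate and 4 of 8 at an unadjusted p under 0.05. Of all genes tested, 7925 of 16581 lay lower, and 5.09% were lower at that unadjusted p. Of the 8 epithelial markers, edgeR called 0 and DESeq2 called 2, Krt7 (adjusted p = 0.000365) and Krt19 (adjusted p = 0.0312). DESeq2 called 2.48% of all genes. The summed level of the 8 markers was 6292 to 11263 CPM without and 3837 to 5271 CPM with the agonist, highest in the second no-agonist library as for the chaperones. The first agonist library, the lowest for the 3 chaperones, was the highest of the agonist group in this sum, at 5271 CPM. The part of the epithelial markers in the chaperone values was not tested.

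Of the dedicated loading factors, Tapbp (tapasin) measured 414, 377 and 661 CPM without and 454, 286 and 284 CPM with the agonist, a log2 fold change of -0.50 ± 0.31 (adjusted p = 0.679). Its first agonist library lay among those without the agonist and the other 2 below them. Tapbpl, a tapasin-like peptide editor, ranged from 21.1 to 41.9 CPM with a fold change of -0.25 ± 0.29.

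**Figure D3:**
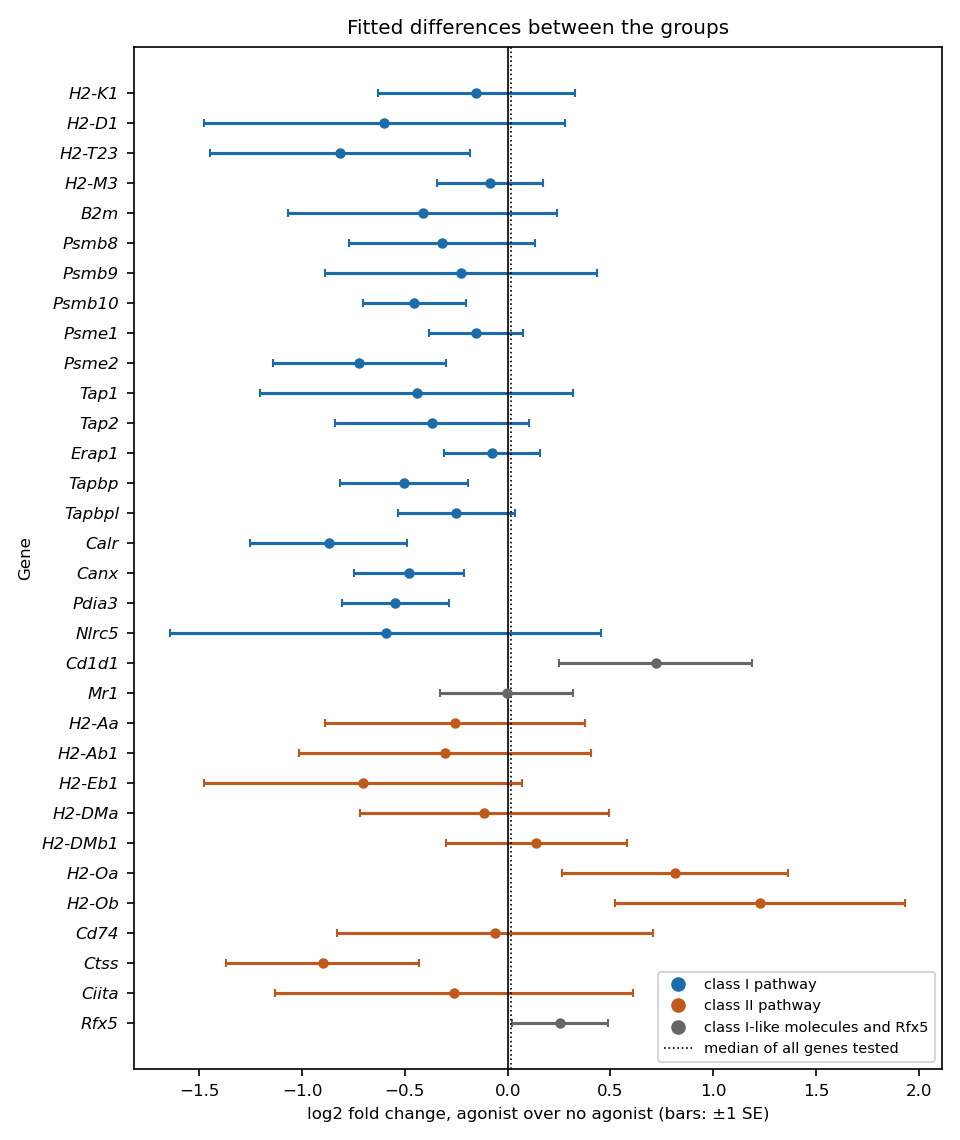
Fitted log2 fold change of each member, agonist over no agonist (x axis, bars of 1 SE, n = 3 libraries per group), in blue for the class I pathway, orange for the class II pathway and grey for Cd1d1, Mr1 and Rfx5. All 19 class I points lie left of 0 with TMM scaling (15 of 19 with library totals alone), and none of the 32 passed the adjusted threshold.

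All 3 class II chains had a low value in the second no-agonist library. H2-Aa, the alpha chain of I-A (chromosome 17, 34282744 to 34287823), measured 266, 58.7 and 507 CPM without the agonist, against 280.1, 202 and 213 CPM with it. H2-Ab1, its beta chain (chromosome 17, 34257689 to 34269419), measured 178, 31.2 and 336 CPM without and 211, 132 and 97.8 CPM with it. H2-Eb1, the beta chain of I-E (chromosome 17, 34305867 to 34316674), measured 76.8, 15.1 and 185 CPM without and 92.8, 38.8 and 38.0 CPM with it. The no-agonist group held both the highest and the lowest library of all 3 genes, 8.63-fold apart for H2-Aa, 10.8-fold for H2-Ab1 and 12.3-fold for H2-Eb1. The agonist libraries lay in between in each case. The fitted log2 fold changes were -0.26 ± 0.63, -0.31 ± 0.71 and -0.70 ± 0.77 in that order, with adjusted p of 0.945, 0.939 and 0.845.

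Cd74, the invariant chain, followed the chains it escorts. It measured 357, 67.6 and 683 CPM without the agonist, against 618, 267 and 176 CPM with it, with means of 369 ± 308 and 354 ± 233 CPM (SD, n = 3) and a log2 fold change of -0.06 ± 0.77 (adjusted p = 0.994). Ciita, the transactivator of class II genes, ranged as widely as Nlrc5, with 5.06, 0.783 and 12.5 CPM without and 8.91, 3.60 and 2.77 CPM with the agonist. Its highest and lowest libraries, 16.0-fold apart (15.95) with 9 counts in the lowest, were the third and the second without the agonist, the same as for Nlrc5. The log2 fold change of Ciita was -0.26 ± 0.87 (adjusted p = 0.964). Ctss, a cathepsin that cuts the invariant chain, departed from this order, with 182, 43.3 and 128 CPM without and 70.8, 70.6 and 47.9 CPM with the agonist. Its first 2 agonist libraries were alike, below the first and the third no-agonist library, and its log2 fold change of -0.90 ± 0.47 (adjusted p = 0.621) was the lowest of the class II genes.

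The peptide editors were far lower. H2-DMa and H2-DMb1, the chains of the H2-DM editor, ranged from 6.61 to 31.2 CPM and from 9.75 to 25.3 CPM, and their log2 fold changes were -0.11 ± 0.61 and 0.14 ± 0.44. For H2-DMb1, 22.7% of the 50-base stretches occur in its neighbour H2-DMb2. H2-Oa and H2-Ob, the chains of the H2-O inhibitor of H2-DM, had other orders of libraries than the chains. H2-Ob was counted 14, 2 and 6 times in the no-agonist libraries and 8, 26 and 24 times in the agonist libraries, a log2 fold change of 1.23 ± 0.71 (adjusted p = 0.660). H2-Oa was counted 13, 9 and 7 times without and 10, 16 and 31 times with it, a log2 fold change of 0.81 ± 0.55 (adjusted p = 0.717). The second and the third agonist library were the highest in both genes, and the first overlapped with the other group. At a limit of 0.203 to 0.275 CPM that a count of 0 allows, such levels leave a wide error.

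The 3 members kept apart gave no difference past the test either. Cd1d1, which presents lipids to NKT cells, measured 9.28, 3.83 and 5.97 CPM without and 13.5, 5.64 and 12.4 CPM with the agonist, with 1 agonist library inside the range of the other group (log2 fold change 0.72 ± 0.47, adjusted p = 0.702). Of its 50-base stretches 19.1% occur in Cd1d2. Mr1, which presents vitamin metabolites to MAIT cells, ranged from 14.5 to 30.1 CPM with group means of 23.9 and 23.8 CPM. Rfx5, the DNA-binding subunit of the RFX complex, ranged from 32.7 to 53.1 CPM, with a log2 fold change of 0.25 ± 0.23 (adjusted p = 0.801), so this promoter factor varied 1.63-fold while Ciita and Nlrc5 varied over 15-fold.

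Per kilobase of annotated exon, the highest mean levels over the 6 libraries were those of H2-D1 at 804, B2m at 783.5, Calr at 446, H2-K1 at 270.4 and Cd74 at 215 CPM per kb. The class II chains H2-Aa and H2-Ab1 stood at 67.0 and 64.0 CPM per kb. H2-D1 and B2m, and likewise H2-Aa and H2-Ab1, did not differ beyond the spread of their libraries. At the low end were Nlrc5 at 2.78, Ciita at 0.587 and H2-Ob at 0.187 CPM per kb.

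The members were looked at, whatever their order of libraries, for the promoter module on which Nlrc5 and Ciita act. RefSeq promoters of GRCm38.p6, from 250 bases before to 50 after the gene start, were in the table for 25 of the 32 members. The Y box is a reversed CCAAT, and the sequence ATTGG on the gene strand began 80 to 40 bases before the start in 7 of 25 members, 5 of 7 class II and 2 of 16 class I genes, against 6.37% of 27025 genes. A TGANG, as in the core of an X2 box, began 18 to 30 bases before it in 6 of 25 members, 4 of 7 class II and 2 of 16 class I genes, against 0.418% of all genes. These windows were set after the sequences had been seen. At any position in the promoter, ATTGG on the gene strand was present in 13 of 25 members, against 24.6% of all genes. Those 13 were 6 of 7 class II and 7 of 16 class I genes, H2-K1 among the latter. The 7 windows of 50 bases are shown 5′ to 3′ on the gene strand, because they let both pathways' promoters be read side by side, and capitals mark ATTGG and each TGANG at that spacing (overlapping ones run together). They lie at chr17:35262983-35263032 (plus strand) for H2-D1, chr2:122147599-122147648 (plus) for B2m, chr17:34287857-34287906 (minus) for H2-Aa, chr17:34305773-34305822 (plus) for H2-Eb1, chr17:34153095-34153144 (plus) for H2-DMb1, chr17:34238813-34238862 (plus) for H2-Ob and chr17:34092301-34092350 (plus) for H2-Oa.
H2-D1: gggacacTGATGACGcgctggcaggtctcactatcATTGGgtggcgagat
B2m: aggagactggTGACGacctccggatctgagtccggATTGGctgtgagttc
H2-Aa: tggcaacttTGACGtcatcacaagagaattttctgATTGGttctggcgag
H2-Eb1: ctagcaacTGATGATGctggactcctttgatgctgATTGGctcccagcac
H2-DMb1: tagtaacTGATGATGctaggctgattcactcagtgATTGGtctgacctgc
H2-Ob: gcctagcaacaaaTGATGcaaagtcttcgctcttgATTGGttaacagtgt
H2-Oa: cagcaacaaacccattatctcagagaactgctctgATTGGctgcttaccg
Of these 7 genes, H2-D1, B2m, H2-Aa and H2-Eb1 were highest in the third no-agonist and the first agonist library, H2-DMb1 in the same pair in the other order, and H2-Oa and H2-Ob were not, although H2-Ob holds both motifs. That pair was also on top in members without such a window, among them H2-K1, Tap1 and Psmb8, and in 19 of 32 members in all. A match of letters describes the window and shows no binding. Over the whole promoter, CCAAT on either strand was present in 18 of 25 members (72%), against 41.1% of all genes. GAAANNGAAA, the letters of an interferon-stimulated response element, was present on either strand in H2-T23, B2m, Psme1, Erap1 and Ctss (20%), against 3.99%. TTCNNNGAA, those of a GAS element, was present in H2-M3 and Psmb8 (8%), against 9.55%.

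The members lie on several chromosomes. The H2 complex on chromosome 17 holds 16 of the 32, 9 class I and 7 class II genes, between 33915899 and 37274484, and members with the third no-agonist and the first agonist library as their top pair were found there (H2-D1, Tap1, H2-Aa) and on other chromosomes (B2m, Nlrc5, Cd74, Ciita).

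Set against each other, the 2 pathways had different levels in 1 library. The level of a pathway in a library is the median over its genes of log2 CPM after centring each gene on the 6 libraries. For class I it was -0.09, -0.31 and 0.82 in the no-agonist libraries and 0.19, -0.16 and -0.63 in the agonist libraries. For class II it was 0.31, -1.71 and 1.13 without and 0.71, -0.07 and -0.55 with it. The class I level minus the class II level was 1.40 in the second no-agonist library and between -0.52 and -0.08 in the other 5, so that library alone was low in class II without being low to the same extent in class I. The SD of the level within the groups, pooled over both, was 1.13 for class II and 0.514 for class I.

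**Figure D4:**
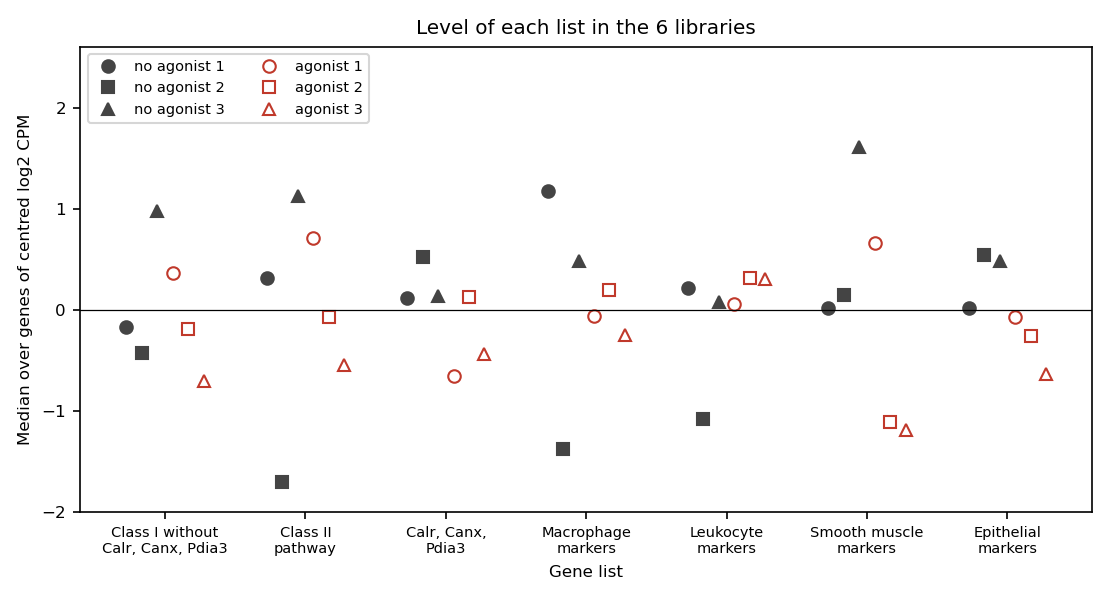
Level of each gene list (x axis) in each library, as the median over its genes of centred log2 CPM (y axis), with filled black symbols for no agonist and open red symbols for agonist. Class I is plotted without Calr, Canx and Pdia3, which form a list of their own. The second no-agonist library is at -1.71 for class II, -1.38 for macrophage markers and -1.08 for leukocyte markers. The third no-agonist and first agonist libraries are the top pair for class I so plotted, class II and smooth muscle markers.

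Markers of other cell types moved with these libraries. Macrophage and monocyte markers were lowest in the second no-agonist library in 10 of 12 genes, and leukocyte markers in 5 of 5, against 17.6% of all genes. So were 5 of 7 dendritic cell, 6 of 8 T and NK cell and 5 of 8 endometrial stroma markers. For epithelium this was 0 of 8, for smooth muscle 0 of 6 and for endothelium 1 of 6. Macrophage markers summed to 881 to 2581 CPM without and 535 to 1039 CPM with the agonist. Of this, Cd14 alone made up 702 to 2002 CPM without and 195 to 595 CPM with it. Leukocyte markers summed to 112 to 190 CPM without and 194 to 257 CPM with it. Laptm5 alone made up 88.0 to 124 CPM of that sum without and 124 to 192 CPM with the agonist. In point estimate 4 of the 5 leukocyte markers lay higher with the agonist and 1, Cd53, lower. Of the macrophage markers, Cd68 had non-overlapping groups, with 81.8, 35.9 and 64.4 CPM without and 25.6, 20.1 and 13.2 CPM with the agonist (log2 fold change -1.63 ± 0.36, unadjusted p = 0.00225, edgeR adjusted p = 0.267, DESeq2 adjusted p = 0.00477), and so had Cd14 (-1.42 ± 0.54, edgeR adjusted p = 0.496). Without Cd14, a sum taken after its values were seen, the other 11 macrophage markers summed to 838, 179.7 and 579 CPM without and 414, 522 and 339 CPM with the agonist, so that the groups overlapped and the second no-agonist library was the lowest. All 6 smooth muscle markers had the third no-agonist and the first agonist library as their top pair, with summed levels of 18573 and 11219 CPM there and 2777 to 7605 CPM in the other 4. Of the 8 T and NK cell markers tested, 7 lay higher with the agonist and 1 lower, where 8656 of 16581 genes lay higher. Both edgeR and DESeq2 called 0 of these markers. Their sums were low, at 9.57 to 20.7 CPM without and 25.8 to 45.8 CPM with the agonist. B cell markers summed to 8.45 to 18.8 CPM over the 6 libraries, and the defining gene Ms4a1 had at most 1 count in any library. Of the 4 B cell markers tested, 2 lay higher with the agonist and 2 lower. Cd79a had non-overlapping groups, with 15, 4 and 10 counts without and 29, 36 and 70 counts with the agonist. Its log2 fold change was 2.06 ± 0.60 (unadjusted p = 0.00929, edgeR adjusted p = 0.357, DESeq2 adjusted p = 0.0703). The part of these cell types in the pathway levels was not tested. In bulk tissue, fewer cells of a type and less RNA per cell cannot be told apart.

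Of the interferon gamma axis, 4 of 13 tested genes (30.8%), Irf1 among them, had the same top pair of libraries as most members. That pair was on top in 59.4% of members and 10.4% of all genes. Irf1, a transcription factor induced by interferon gamma, measured 135, 90.8 and 277 CPM without and 169, 86.2 and 74.5 CPM with the agonist (log2 fold change -0.61 ± 0.47, adjusted p = 0.753). Ifng itself was near the floor, with 2, 0 and 1 counts without and 0, 3 and 3 with the agonist, and was not tested. Ifngr1, a subunit of its receptor, measured 66.1, 48.9 and 57.9 CPM without and 56.6, 49.0 and 62.9 CPM with the agonist (-0.04 ± 0.19, adjusted p = 0.982). The receptor subunit Ifngr2 measured 131, 168 and 367 CPM without and 154, 108 and 75.5 CPM with the agonist (-0.98 ± 0.43, adjusted p = 0.550), and the kinase Jak2 had non-overlapping groups, higher with the agonist (0.54 ± 0.24, adjusted p = 0.550). Irf2, an interferon regulatory factor, had non-overlapping groups in the other direction, with 38.5, 34.3 and 38.9 CPM without and 30.9, 31.6 and 29.1 CPM with the agonist (-0.29 ± 0.17, adjusted p = 0.671). Of the 13 genes of this axis that were tested, 0 passed, 5 lay higher and 8 lower.

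The further genes of the 2 pathways gave no call either. Of 13 other class I and class II chains tested, 2 lay higher and 11 lower, and 9 of the 13 had the third no-agonist and the first agonist library as their top pair. H2-K2 had the smallest p of them, with non-overlapping groups (-0.50 ± 0.24, adjusted p = 0.576). H2-T3, the next, was counted 15, 3 and 48 times without and 12, 5 and 8 times with the agonist, and its highest library was again the third no-agonist one (-1.58 ± 0.94, adjusted p = 0.666). Of 14 constitutive proteasome subunits, 2 lay higher and 12 lower, with a median log2 fold change of -0.12, and 0 had that top pair. Of 8 other peptide-processing enzymes, 2 lay higher and 6 lower. The aminopeptidase Npepps had the smallest p of them, with non-overlapping groups, lower with the agonist (-0.59 ± 0.26, adjusted p = 0.551). Of 14 endosomal proteases and turnover genes, 6 lay higher and 8 lower, with the smallest p for the cathepsin Ctsh (-0.72 ± 0.33, adjusted p = 0.560). March8, a ubiquitin ligase, had non-overlapping groups, lower with the agonist (-0.32 ± 0.19, adjusted p = 0.666). Of 9 further promoter factors, 6 lay higher and 3 lower. The NF-Y subunit Nfyb had the smallest p of them, with non-overlapping groups, higher with the agonist (0.32 ± 0.20, adjusted p = 0.684). Each list of this paragraph held 1 gene with non-overlapping groups, which was Psmb5 for the constitutive proteasome. Over all genes tested, 7.61% were lower and 6.94% higher in this sense.

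The libraries held 11720958 to 14104266 counts. The 18S ribosomal gene took 0.254 to 3.31% of them and mitochondrially encoded genes 1.22 to 3.89%, with the highest 18S shares in the second no-agonist library (3.31%) and the first agonist library (1.94%), 2 of the 3 libraries that set the patterns above. The part of RNA quality in those patterns was not tested. No pair of libraries held identical counts.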

How the data were processed

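The values are the authors' deposited read counts per gene symbol for 6 libraries (total RNA, Ion Total RNA-Seq Kit, single-end Ion Proton reads, per the labels' protocols). The build mm10 (GRCm38) and the counter HTSeq 0.6.1 are named in the submitters' processing notes. Which aligner, annotation, strand setting and filters were used is not given in the sources used here. Columns were mapped to samples by the labels.

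Counts were analysed in R 4.3.3 with edgeR 4.0.16: filterByExpr at its defaults (16581 genes), TMM factors, and the quasi-likelihood F-test of agonist against no agonist without covariates, with Benjamini-Hochberg adjustment and a threshold of 0.05. The common biological coefficient of variation was 0.375. Each SE is the size of the log2 fold change divided by the square root of F. List levels used log2 CPM with a prior count of 2. Totals of 11720958 to 14104266 counts put the limit that a count of 0 allows (3 counts) at 0.203 to 0.275 CPM, for counting error only.

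The 32 members, the lists and the rules were chosen with earlier results of these data known. Named were all members, Psmb5, Psmb6, Psmb7, Ifng, Irf1, Ifngr1, Ifngr2 and, of each other list of pathway genes, up to 3 tested genes with the smallest p, of which the text describes the first, those with separated groups and H2-T3. One gene that the rule names is not reported here. Cell markers were named after their values were seen. Coordinates, exon lengths and shared 50-base stretches come from GENCODE M21 (GRCm38), which held all 32 members. Promoters come from RefSeq (GRCm38.p6) and were searched in Python 3.11.15. The tests were tried on simulated counts. Alternatives were other scalings, filters and tests (DESeq2 1.42.0, edgeR's likelihood ratio test, limma-voom with limma 3.58.1) and each library left out.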

Additional observations from a re-analysis of the deposited data

How the results depend on the processing

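No member passed the adjusted threshold under any alternative, and 12 of 32 kept the sign of their log2 fold change in every fit. Over all genes, 36 were called without the filter on low counts, 421 by DESeq2 (166 higher, 255 lower), 268 by edgeR's likelihood ratio test (104 higher, 164 lower) and 0 to 1 with libraries left out. Members at an unadjusted p under 0.05 were 2 without the filter (Calr and Ctss), 1 each by DESeq2, the likelihood ratio test and limma-voom (Calr), and 0 to 3 with libraries left out (3 without the second agonist library: Calr, Canx and Pdia3). Among all genes, that p was reached without the filter by 1054 higher and 1147 lower of 28089. The counts were 919 and 1010 of 28032 by DESeq2, and 740 and 819 of 16581 by the likelihood ratio test. They were 658 and 870 of 16581 by limma-voom, and 639 and 757 of 17012 without the second agonist library.

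The median of all genes was 0.064 with upper-quartile factors, 0.18 with library totals alone and -0.0033 to 0.043 with libraries left out. With library totals the class I median was -0.27 and the class II median -0.02, and 12 members lay higher and 20 lower. The class I median ran from -0.70 (without the first agonist library) to 0.18 (without the third no-agonist library). The class II medians in these cases were -0.69 and 0.55. Without both libraries, an alternative chosen after seeing the data, the class I median was -0.16 and the class II median 0.14. A class II list limited to genes above 1 CPM could not be told from the full list, since no gene dropped out.

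Fold changes that turned their sign were, with upper-quartile factors, 0.040 for Mr1, with library totals, 0.0072 for H2-K1, 0.068 for H2-M3, 0.013 for Psme1, 0.096 for Erap1, 0.16 for Mr1, 0.039 for H2-DMa and 0.089 for Cd74, and with limma-voom, 0.074 for Nlrc5, 0.029 for Mr1, 0.21 for H2-Aa, 0.18 for H2-Ab1, 0.28 for Cd74 and 0.25 for Ciita. With libraries left out, the 20 members that turned at least once ranged over -0.61 to 0.30 for H2-K1, -1.70 to 0.73 for H2-D1, -1.20 to 0.47 for H2-T23, -0.21 to 0.023 for H2-M3, -0.87 to 0.70 for B2m, -0.70 to 0.18 for Psmb8, -0.84 to 0.83 for Psmb9, -0.28 to 0.018 for Psme1, -1.14 to 0.90 for Tap1, -0.88 to 0.19 for Tap2, -0.20 to 0.26 for Erap1, -1.61 to 1.57 for Nlrc5, -0.26 to 0.25 for Mr1, -0.73 to 0.52 for H2-Aa, -0.80 to 0.49 for H2-Ab1, -1.25 to 0.30 for H2-Eb1, -0.74 to 0.48 for H2-DMa, -0.26 to 0.57 for H2-DMb1, -0.73 to 0.74 for Cd74 and -0.93 to 0.79 for Ciita. The difference in log2 ratio ranged over -0.12 to 0.60 for Psmb8 to Psmb5 and -0.48 to 0.85 for Psmb9 to Psmb6. As a share of both subunits' counts, the latter was -0.827 percentage points. The cause of these turns was not tested.

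No paired analysis was possible because the groups share no replicate numbers in the labels. With 3 libraries per group, and SEs of 0.23 to 1.05 on the log2 scale, the error of each fold change is wide, and a p that misses the threshold does not show that the groups are alike.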
